A study of Mus musculus with 4 samples.

Results

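The genes of fatty acid activation and beta-oxidation were examined in the developing mouse retina. They are 36 of the 24062 genes in the count table and were taken from it by symbol. The set holds 6 genes of the carnitine shuttle, 6 acyl-CoA synthetases, 9 acyl-CoA dehydrogenases, 5 enzymes of the later mitochondrial steps, 3 enzymes for unsaturated fatty acids, 3 genes of the electron transfer flavoprotein pathway and 4 peroxisomal enzymes. All 36 had enough reads to be tested.

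RNA-seq was performed on retinas of E13.5 mouse embryos of a mixed C57BL/6 and 129 strain, with 2 wildtype libraries and 2 libraries of Nrf1 conditional knockout embryos, labelled Nrf1-CKO. Nrf1 is a transcription factor of nuclear genes for mitochondrial proteins, and the comparison asks which genes depend on it. In Nrf1-CKO embryos (Nrf1 f/f;Six3-Cre), both Nrf1 copies carry loxP sites around exon 4, and a Six3-Cre transgene removes this exon in retinal progenitor cells, starting in the central part of the retina. Each library came from the pooled retinas of several littermates, so the spread between libraries is not that between single embryos. No Cre-only control was analysed here, so the transgene and the deletion cannot be told apart.

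Before a cell can burn a fatty acid, an acyl-CoA synthetase joins it to coenzyme A. Carnitine palmitoyltransferase 1 (CPT1) on the outer mitochondrial membrane then moves long acyl chains to carnitine, a carrier takes them across the inner membrane, and CPT2 moves them back to coenzyme A. This entry step is held back by malonyl-CoA. Inside the matrix, an acyl-CoA dehydrogenase, a hydratase, a hydroxyacyl-CoA dehydrogenase and a thiolase shorten the chain in turn, and the electrons of the dehydrogenases pass through the electron transfer flavoprotein to the respiratory chain. Very long chains are shortened first in peroxisomes. Neural tissue is known to rely mainly on glucose, although glia and photoreceptors can oxidize fatty acids.

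The libraries held from 74577660 to 85933945 reads on genes. The targeted gene Nrf1 (chromosome 6 of GRCm38, from 30047988 to 30153458) was counted at 9052 and 7789 reads in wildtype, against 8594 and 8284 reads in Nrf1-CKO. Its log2 fold change was -0.03 (SE 0.07, edgeR adjusted p = 0.794), and since only exon 4 is removed, the count over the whole gene could not check the labels. Retinal progenitor markers such as Pax6 were present in every library, with a sum of 8084 and 8651 CPM (counts normalized for library size with TMM factors) in wildtype and 6305 and 6893 CPM in Nrf1-CKO. Most of this difference lay in *Ccnd1* and *Fgf15*, the 2 of the 11 markers that were called lower, and the median log2 fold change of the list was -0.10. Of 10 markers of retinal ganglion cells, 8 were called lower in Nrf1-CKO. Markers of other tissues of the eye moved as well. Called higher were 9 of 10 lens markers, 10 of 10 markers of macrophages and microglia and 8 of 10 of endothelium. So were 6 of 9 of the pigment epithelium, 7 of 10 of periocular mesenchyme and 4 of 6 tested erythroid markers. The endothelial marker *Kdr* was called lower, from 199.7 and 210.9 CPM in wildtype to 143.8 and 137.5 CPM in Nrf1-CKO. No other marker of these lists was called lower. Of all tested genes, 12.8% were called higher and 8.04% lower. In bulk samples of this kind, fewer cells of a type and less RNA per cell cannot be told apart.

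Because the deleted factor binds a known DNA motif, the promoters of the set were searched for it. Of the 36 genes, 30 had 33 windows in the RefSeq promoter sequences (GRCm38.p6), each of 300 bases, with 250 before and 50 after the start of transcription. The NRF1 motif was searched as GCGC, any base and TGCGC on both strands. A stricter form, contained in it, has A as the free base and is an exact palindrome. The motif with any base was present in 3 of the 33 windows (9.09%), those of *Acad10*, *Etfb* and *Etfdh*, against 4.60% of all 32851 windows. This palindrome was in 2 of them, *Acad10* and *Etfdh*, and in 0.971% of all windows. No window of the 4 genes called different between the genotypes held these letters. The following windows are those with the motif, shown in capitals, and that of *Cpt1a*, the gene with the largest change of the set, with its GC boxes (CCGCCC, searched on both strands) in capitals. They lie at chr5:121660461-121660760 (*Acad10*, minus strand), chr7:43443822-43444121 (*Etfb*, plus strand), chr3:79628718-79629017 (*Etfdh*, minus strand) and chr19:3323051-3323350 (*Cpt1a*, plus strand).
Acad10: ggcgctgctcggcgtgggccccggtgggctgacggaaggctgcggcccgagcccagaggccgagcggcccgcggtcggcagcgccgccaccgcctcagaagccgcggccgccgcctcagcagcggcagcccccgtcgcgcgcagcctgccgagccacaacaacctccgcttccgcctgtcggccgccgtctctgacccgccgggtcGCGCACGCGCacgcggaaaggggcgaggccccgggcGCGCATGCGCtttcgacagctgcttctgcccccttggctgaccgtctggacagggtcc
Etfb: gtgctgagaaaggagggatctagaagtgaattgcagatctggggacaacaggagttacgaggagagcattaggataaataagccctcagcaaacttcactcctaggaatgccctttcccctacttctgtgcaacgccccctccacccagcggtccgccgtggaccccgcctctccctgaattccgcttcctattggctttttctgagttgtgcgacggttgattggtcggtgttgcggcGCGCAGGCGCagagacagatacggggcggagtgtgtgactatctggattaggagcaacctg
Etfdh: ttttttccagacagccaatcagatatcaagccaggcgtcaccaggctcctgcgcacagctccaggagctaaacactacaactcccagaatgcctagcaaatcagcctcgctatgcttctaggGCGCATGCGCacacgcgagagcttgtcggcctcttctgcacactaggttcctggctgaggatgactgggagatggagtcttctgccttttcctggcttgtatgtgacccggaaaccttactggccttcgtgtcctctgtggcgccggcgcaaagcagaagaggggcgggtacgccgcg
Cpt1a: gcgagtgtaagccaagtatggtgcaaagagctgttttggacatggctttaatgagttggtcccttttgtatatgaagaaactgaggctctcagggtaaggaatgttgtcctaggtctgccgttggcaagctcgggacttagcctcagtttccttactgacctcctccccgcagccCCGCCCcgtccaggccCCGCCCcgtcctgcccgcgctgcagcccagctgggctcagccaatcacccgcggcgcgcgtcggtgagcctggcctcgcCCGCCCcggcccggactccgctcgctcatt

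In these windows the motif began 44 and 8 bases before the start for *Acad10*, 11 before it for *Etfb* and 128 before it for *Etfdh*. The GC box was found in 26 of the 33 windows (78.8%), of 24 genes, against 35.7% of all windows, and 3 copies stood in that of *Cpt1a*. All windows together were not matched to those of the set in base composition or expression. The shares of the NRF1 motif and the GC box therefore cannot be read as particular to the set. A direct repeat of AGGNCA with 1 base between the copies, a form of the PPAR element searched on both strands, was in none of the 33 windows and in 0.381% of all. A match is only a match of letters, and its absence says nothing about binding outside the window.

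Most genes of fatty acid activation and beta-oxidation differed by less than 1.4-fold between the genotypes. A gene was called where edgeR's quasi-likelihood test gave a fold change of at least 1.4 and a Benjamini-Hochberg adjusted p of at most 0.2 over 15762 tested genes. By this rule 1 member was called higher in Nrf1-CKO (2.78%, against 12.8% of all tested genes) and 3 were called lower (8.33%, against 8.04%). In both directions together, 4 of 36 were called (11.1%, against 20.9% of all tested genes). The share called higher was thus below that of all genes, and the share called lower was near it. The gene that rose was *Cpt1a*, and those that fell were *Acsl6*, *Acsl4* and *Ehhadh*. The fold change was smaller than 1.4 for 31 of the 36, including all 9 acyl-CoA dehydrogenases and all 5 enzymes of the later mitochondrial steps. The median log2 fold change of the set was 0.04, against 0.00073 for all tested genes, with 19 members above 0 and 17 below. In 21 members (58.3%) the libraries of the genotypes did not overlap, against 62.5% of all tested genes.

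**Figure D1:**
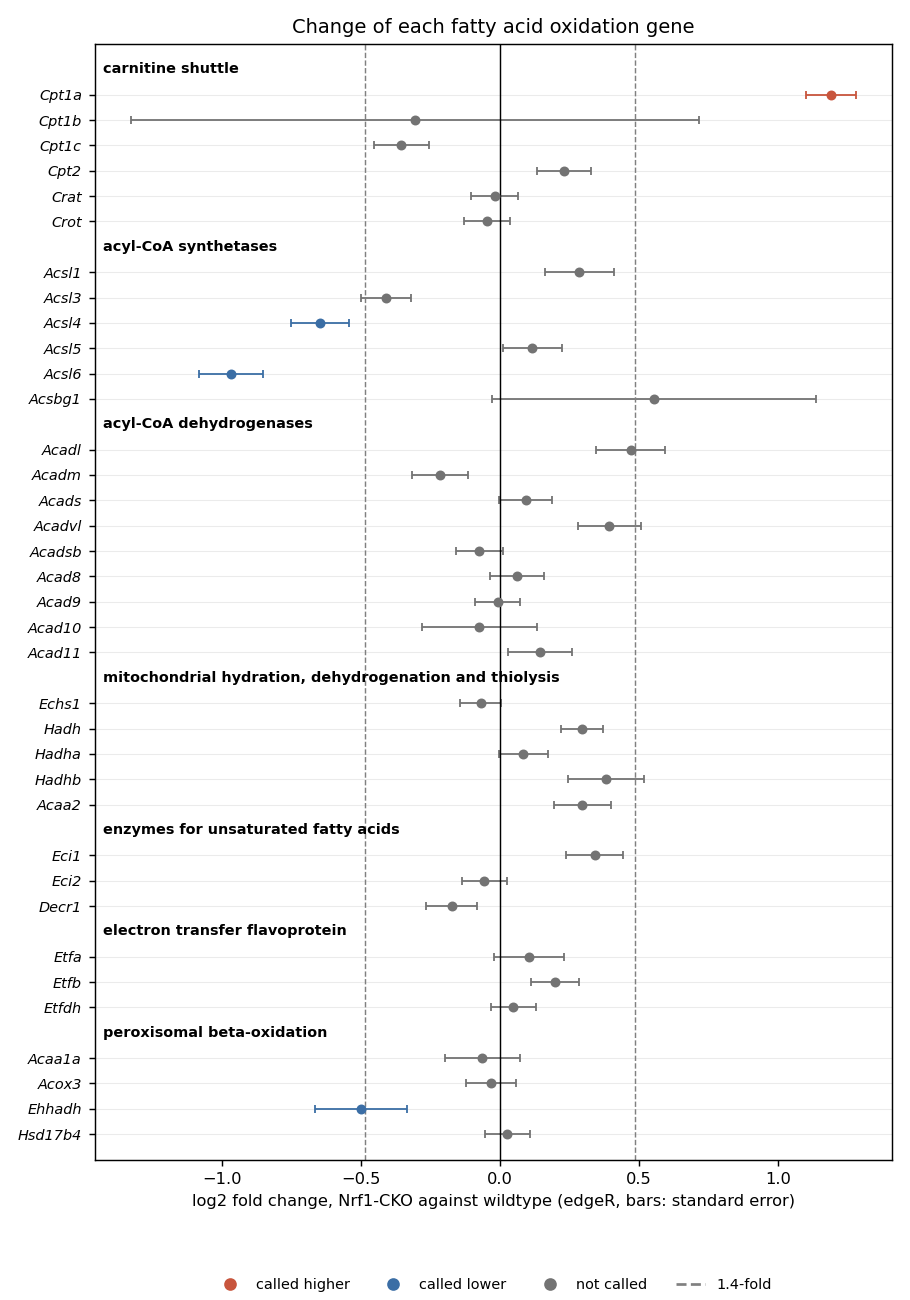
Log2 fold change of each of the 36 genes in Nrf1-CKO against wildtype retinas from edgeR, with the standard error as bars, grouped by the role of the enzyme; dashed lines mark 1.4-fold in each direction. *Cpt1a* at 1.19 lies far to the right, *Acsl6* at -0.97 and *Acsl4* at -0.65 lie to the left, and most other genes lie near 0; the wide bars belong to *Cpt1b* and *Acsbg1*, which had few reads.

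The main difference of the carnitine shuttle was in *Cpt1a*, the CPT1 form of liver and of most other tissues (chromosome 19, from 3322334 to 3385733, plus strand, GRCm38). It was measured at 25.5 and 25.5 CPM in the wildtype libraries and at 54.6 and 61.7 CPM in the Nrf1-CKO libraries. Both Nrf1-CKO libraries lay far above both wildtype libraries, which were nearly equal. The mean rose from 25.5 ± 0.03 to 58.1 ± 5.06 CPM (SD, n = 2 libraries), a 2.28-fold change. The log2 fold change was 1.19 (SE 0.09, edgeR adjusted p = 9.9e-05), and it ranged from 1.10 to 1.28 over the fits that left out 1 library. Lens markers summed to 7826 CPM in the first Nrf1-CKO library and 3203 CPM in the second, against 138 and 376 CPM in wildtype. Markers of macrophages and microglia summed to 256 and 310 CPM in Nrf1-CKO, against 84.6 and 76.9 CPM in wildtype. No marker of either list was at 0 in every library. The median log2 fold change of the markers was 3.89 for lens and 1.82 for macrophages and microglia. It was 1.14 for endothelium, 0.99 for pigment epithelium, 0.76 for periocular mesenchyme and 0.60 for erythroid cells. Below 0 were 1 endothelial marker and 2 markers of the pigment epithelium. The part of any of these tissues in the *Cpt1a* difference was not tested.

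*Cpt1c*, the form of neurons, which is located in the endoplasmic reticulum and has little catalytic activity, was measured at 26.3 and 24.4 CPM in wildtype and at 19.9 and 19.7 CPM in Nrf1-CKO. Its levels did not overlap and lay in the opposite direction to *Cpt1a*. The log2 fold change was -0.36 (SE 0.10, edgeR adjusted p = 0.032), less than 1.4-fold, so the gene was not called. *Cpt1b*, the muscle form, had few counted reads, with 11 and 13 reads in wildtype and 2 and 18 in Nrf1-CKO. These counts allow no statement on its difference, whose log2 value was -0.31 with an SE of 1.02. The exons of *Cpt1b* share 2744 bases on the same strand with the readthrough gene Gm44502, close to the whole principal transcript of 2895 bases. Whether the counting left out reads that fall in both genes was not tested, so the low count cannot be read as low expression.

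The balance of the CPT1 genes can be compared per length, as RPKM over the principal transcript of each gene. In wildtype, *Cpt1a* made up 38.4% and 40.1% of the summed CPT1 RPKM, and in Nrf1-CKO 63.9% and 66.7%. *Cpt1c* was the larger share in both wildtype libraries, at 61.3% and 59.5%, and the smaller in both Nrf1-CKO libraries, at 36.1% and 33.0%. The order of *Cpt1a* and *Cpt1c* was therefore opposite in the genotypes, while the sum was 15.4 and 14.7 RPKM in wildtype and 19.8 and 21.4 RPKM in Nrf1-CKO. These shares are a description of 2 libraries per genotype, without a test of their own.

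**Figure D2:**
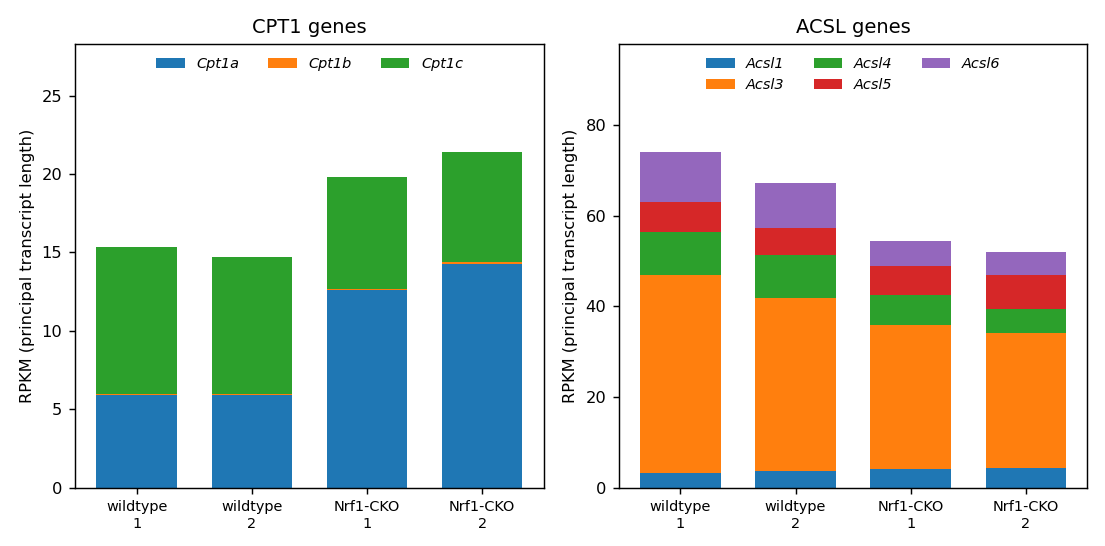
Levels per length (RPKM, principal transcript length) of the CPT1 genes and of the long-chain acyl-CoA synthetase (ACSL) genes in each library, stacked by gene. *Cpt1a* is the smaller part of the CPT1 bar in wildtype and the larger in Nrf1-CKO; the ACSL bar is lower in both Nrf1-CKO libraries, at 54.5 and 52.0 RPKM, than in wildtype, at 74.2 and 67.2 RPKM.

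The other genes of the shuttle were not called. *Cpt2*, the transferase of the inner membrane, was measured at 31.0 and 31.8 CPM in wildtype and at 34.2 and 39.5 CPM in Nrf1-CKO. The libraries did not overlap, but the log2 fold change was 0.23 (SE 0.10, edgeR adjusted p = 0.127). *Crat*, carnitine acetyltransferase, was at 41.4 and 45.6 CPM in wildtype and at 42.5 and 43.3 CPM in Nrf1-CKO. *Crot*, the peroxisomal carnitine octanoyltransferase, was at 70.8 and 64.6 CPM in wildtype and at 67.3 and 63.7 CPM in Nrf1-CKO. For *Crat* and *Crot* the genotypes overlapped, and their log2 fold changes of -0.02 and -0.05 were smaller than their SEs of 0.08 each. *Slc25a20*, the carnitine-acylcarnitine carrier that lies between CPT1 and CPT2 and is no member of the set, had a log2 fold change of 0.14 (SE 0.10, edgeR adjusted p = 0.347).

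Among the acyl-CoA synthetases, 2 of 6 genes fell and none rose, against 8.04% of all tested genes called lower and 12.8% called higher; 6 genes are too few to read these counts as particular to the synthetases. *Acsl6*, the form enriched in brain that handles polyunsaturated fatty acids (chromosome 11, from 54303798 to 54364756, plus strand), was measured at 29.1 and 25.5 CPM in wildtype and at 14.6 and 13.3 CPM in Nrf1-CKO. Every Nrf1-CKO library lay below every wildtype library, and the mean was 51.1% of that in wildtype. The log2 fold change was -0.97 (SE 0.12, edgeR adjusted p = 0.00054), the largest decrease of the set.

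*Acsl4*, which prefers arachidonic acid (chromosome X, from 142317993 to 142390535, minus strand), was at 50.01 and 49.4 CPM in wildtype and at 34.8 and 28.6 CPM in Nrf1-CKO. The genotypes did not overlap, and the mean in Nrf1-CKO was 63.8% of that in wildtype. The log2 fold change was -0.65 (SE 0.10, edgeR adjusted p = 0.0025), and the lower value of the second Nrf1-CKO library moved it between -0.80 and -0.51 when libraries were left out. *Acsl3*, the form of the endoplasmic reticulum and lipid droplets, was at 172.9 and 151.0 CPM in wildtype and at 125.8 and 118.0 CPM in Nrf1-CKO. Here too the genotypes did not overlap, but the log2 fold change of -0.41 (SE 0.09, edgeR adjusted p = 0.011) was less than 1.4-fold. Markers of retinal ganglion cells fell in the same libraries, from 1689 and 1962 to 701 and 569 CPM in sum, and their part in these decreases was not tested.

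The remaining synthetases lay on the other side of 0 without being called. *Acsl1*, the main form of fat, liver and heart, was at 12.3 and 14.3 CPM in wildtype and at 15.9 and 16.6 CPM in Nrf1-CKO, a log2 fold change of 0.29 (SE 0.12, edgeR adjusted p = 0.136). *Acsl5*, a mitochondrial form, overlapped between the genotypes, with a log2 fold change of 0.12 (SE 0.11). *Acsbg1*, a synthetase of brain and steroid-forming tissues, had 42 and 19 reads in wildtype and 47 and 43 in Nrf1-CKO, too few for its log2 fold change of 0.55 (SE 0.58) to be read as a difference.

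Per length, *Acsl3* was the main long-chain synthetase gene in all 4 libraries, with 59.0% and 56.9% of the ACSL sum in wildtype and 58.4% and 57.4% in Nrf1-CKO. The share of *Acsl6* was 15.1% and 14.6% in wildtype and 10.4% and 9.83% in Nrf1-CKO. All its exons together are 9914 bases, against 2594 in the principal transcript, so this share depends on the length used. The shares of *Acsl1* and *Acsl5* were larger in Nrf1-CKO, at 7.47% and 8.18% for *Acsl1* and 11.6% and 14.2% for *Acsl5*, against 4.25% and 5.48% and 8.84% and 9.07% in wildtype.

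None of the 9 acyl-CoA dehydrogenases, which catalyse the first step of each round, was called, against 20.9% of all tested genes, and 9 genes are too few to read this count as particular to them. Among the forms that differ by chain length, the genes for longer chains lay above 0. *Acadl*, the long-chain form, was measured at 10.7 and 10.2 CPM in wildtype and at 15.3 and 13.7 CPM in Nrf1-CKO. *Acadvl*, the very long-chain form, was at 25.0 and 28.2 CPM in wildtype and at 31.8 and 38.0 CPM in Nrf1-CKO. In both genes the genotypes did not overlap, and the log2 fold changes of 0.47 (SE 0.12, edgeR adjusted p = 0.026) and 0.39 (SE 0.11, edgeR adjusted p = 0.037) came to 1.38-fold and 1.31-fold, short of the 1.4-fold limit. *Acadvl* shares 1151 exon bases with *Dvl2* on the opposite strand, and the strand setting of the counting was not given in the sources used here.

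The medium-chain form *Acadm* lay on the other side, at 28.1 and 25.4 CPM in wildtype and at 23.7 and 22.3 CPM in Nrf1-CKO, a log2 fold change of -0.22 (SE 0.10, edgeR adjusted p = 0.168). *Acads*, the short-chain form, overlapped between the genotypes, at 0.09 (SE 0.09). *Acad8* and *Acadsb*, which act on branched chains from valine and isoleucine, had log2 fold changes of 0.06 and -0.08. *Acad9*, which also assembles respiratory complex I, was at 43.7 and 45.4 CPM in wildtype and at 42.8 and 45.7 CPM in Nrf1-CKO, a log2 fold change of -0.0093. *Acad10* and *Acad11*, which differ from the rest by an added kinase-like domain, had log2 fold changes of -0.07 (SE 0.21) and 0.14 (SE 0.12). The genotypes overlapped for *Acad10* and not for *Acad11*, whose edgeR adjusted p was 0.434.

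Of the 5 genes for the later mitochondrial steps, none was called, against 20.9% of all tested genes, and 5 genes are too few to read much from this. The median log2 fold change was 0.29, and 4 of the 5 lay above 0, as did 7898 of the 15762 tested genes. *Hadh*, the hydroxyacyl-CoA dehydrogenase for short and medium chains, was at 91.3 and 94.6 CPM in wildtype and at 112.1 and 115.9 CPM in Nrf1-CKO. This separation was wide for its spread, with a log2 fold change of 0.29 (SE 0.07, edgeR adjusted p = 0.022), but it was only 1.23-fold. *Acaa2*, the mitochondrial thiolase, was at 20.4 and 19.5 CPM in wildtype and at 23.3 and 25.7 CPM in Nrf1-CKO, a log2 fold change of 0.30 (SE 0.10, edgeR adjusted p = 0.073). *Echs1*, the short-chain hydratase, differed by -0.07 (SE 0.08).

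*Hadha* and *Hadhb* encode the subunits of the trifunctional protein, which carries out the last 3 steps on long chains, and they lie head to head on chromosome 5 with 85 bases between them. *Hadha* was measured at 163.0 and 152.2 CPM in wildtype and at 155.9 and 178.1 CPM in Nrf1-CKO, and the genotypes overlapped (log2 fold change 0.08, SE 0.09). *Hadhb* was at 8.91 and 8.37 CPM in wildtype and at 10.5 and 12.1 CPM in Nrf1-CKO, without overlap (log2 fold change 0.38, SE 0.14, edgeR adjusted p = 0.082). Per length, the RPKM of *Hadha* was 9.33 and 9.27 times that of *Hadhb* in wildtype and 7.60 and 7.53 times in Nrf1-CKO. The protein subunits are known to be present in equal number, whereas these counted levels were far apart in every library. Reads that aligned to several places were not counted, and they made up 54.6% to 58.0% of all entries in the libraries, so a gene with close copies would be undercounted to an extent that was not tested.

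Of the enzymes that deal with double bonds, *Eci1* was at 16.2 and 16.1 CPM in wildtype and at 20.1 and 20.8 CPM in Nrf1-CKO. Both Nrf1-CKO libraries were higher, but the log2 fold change of 0.34 (SE 0.10, edgeR adjusted p = 0.044) was less than 1.4-fold. *Eci2*, a second enoyl-CoA isomerase, differed by -0.06 (SE 0.08), and *Decr1*, the dienoyl-CoA reductase, by -0.17 (SE 0.09, edgeR adjusted p = 0.218).

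The electron transfer flavoprotein takes up the electrons of all acyl-CoA dehydrogenases. Its subunit genes *Etfa* and *Etfb* and the gene of its oxidoreductase *Etfdh* had log2 fold changes of 0.10 (SE 0.13), 0.20 (SE 0.09) and 0.05 (SE 0.08), and none was called. *Etfb* was at 29.8 and 31.4 CPM in wildtype and at 34.9 and 35.3 CPM in Nrf1-CKO (edgeR adjusted p = 0.139), whereas *Etfa* and *Etfdh* overlapped. *Etfb* and *Etfdh* were among the genes with the NRF1 motif in their promoter windows, and *Acad10*, the other such gene, was at 3.86 and 3.78 CPM in wildtype and at 3.30 and 3.95 CPM in Nrf1-CKO. None of these genes passed the threshold in either direction.

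In the peroxisomal branch, *Ehhadh* fell and the others were not called. *Ehhadh*, the bifunctional enzyme of the inducible pathway (chromosome 16, from 21761287 to 21787807, minus strand), was measured at 7.34 and 6.46 CPM in wildtype and at 4.995 and 4.76 CPM in Nrf1-CKO. The genotypes did not overlap, and the log2 fold change was -0.50 (SE 0.17, edgeR adjusted p = 0.061), just past 1.4-fold. Without the first wildtype library the value was -0.40 (edgeR adjusted p = 0.262), and without the second Nrf1-CKO library it was -0.47, so that the gene was not called in either case. *Hsd17b4*, the second bifunctional enzyme, was at 95.9 and 94.3 CPM in wildtype and at 92.1 and 101.5 CPM in Nrf1-CKO, a log2 fold change of 0.03 (SE 0.08).

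*Acox3*, the oxidase for branched chains, and *Acaa1a*, the peroxisomal thiolase, overlapped as well, with log2 fold changes of -0.03 (SE 0.09) and -0.06 (SE 0.13). The value of *Acaa1a* is uncertain, since it shares sequence with the near-identical gene *Acaa1b*.

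**Figure D3:**
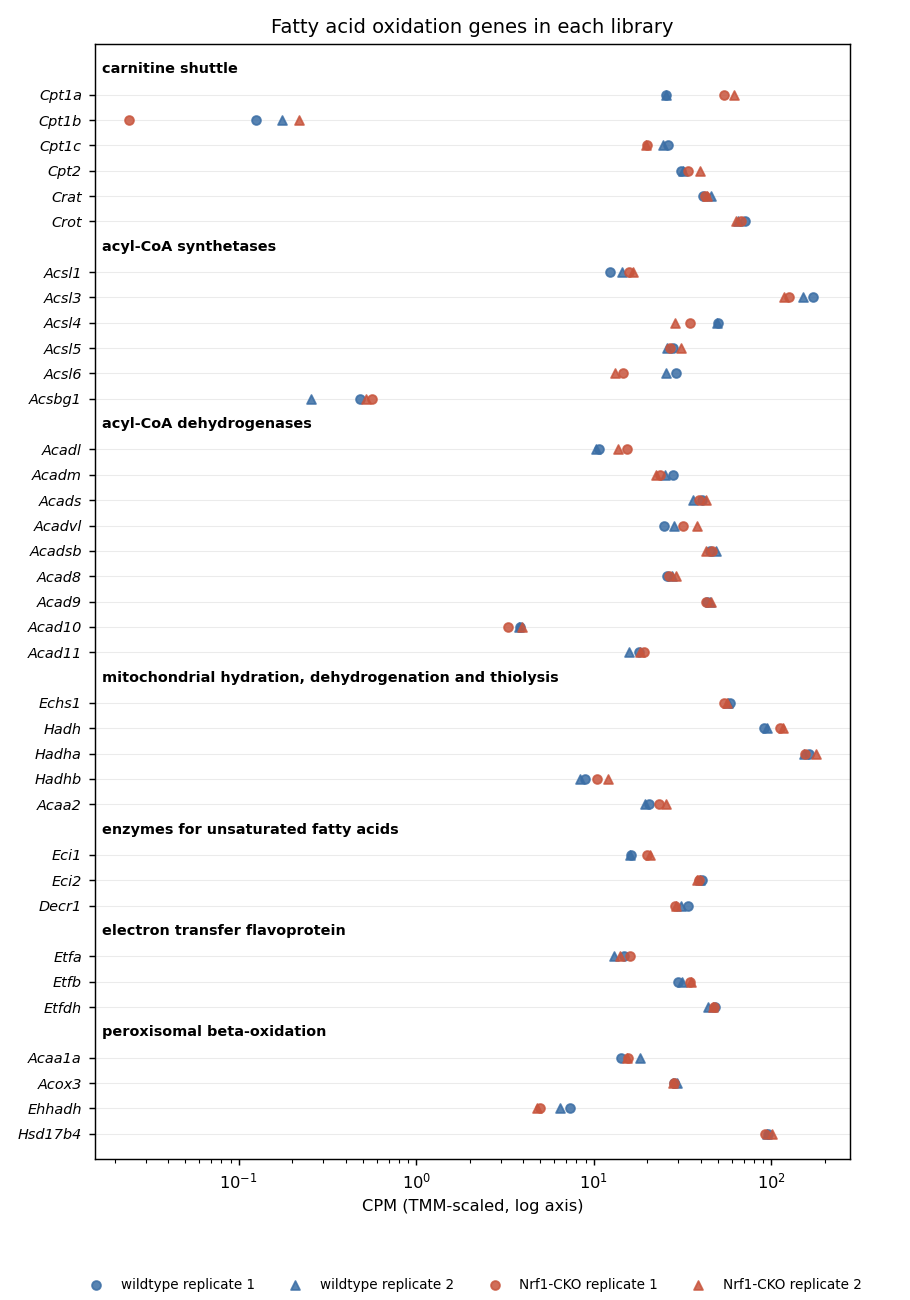
Levels of the 36 genes in each of the 4 libraries, as TMM-scaled CPM on a log axis, grouped by role; blue marks wildtype and red Nrf1-CKO, circles replicate 1 and triangles replicate 2. Red and blue symbols separate for the called genes *Cpt1a*, *Acsl4*, *Acsl6* and *Ehhadh*. The genotypes do not overlap in 21 of the 36 genes, among them *Acadl* and *Acsl3*, which were not called. For most other genes the symbols lie close together or overlap.

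Per length of the principal transcript, the levels of the set spanned a wide range in these retinas. All exons of *Hadh* together are 4977 bases, against 1789 in this transcript. For *Echs1* they are 8286 against 1557 bases, and for *Acsl3* 4357 against 3950. Ranks, shares and ratios per length therefore depend on the length used, and those over all exons were not computed. *Hadh* had the highest mean in both genotypes, at 52.0 RPKM in wildtype and 63.7 RPKM in Nrf1-CKO. The next ranks were held by *Acsl3*, *Hadha*, *Echs1*, *Hsd17b4* and *Etfb* in wildtype, from 41.0 to 34.3 RPKM, and by the same genes in another order in Nrf1-CKO, from *Hadha* at 41.6 to *Acsl3* at 30.9 RPKM. *Cpt1a* was at rank 28 of the 36 in wildtype, with a mean of 5.90 RPKM, and at rank 15 in Nrf1-CKO, with 13.47 RPKM. *Acsl6* was at rank 18 in wildtype and 31 in Nrf1-CKO, *Acsl4* at 21 and 28, and *Ehhadh* at 33 in both. The lowest means over all 4 libraries were those of *Acad10* at 0.973, *Acsbg1* at 0.158 and *Cpt1b* at 0.0468 RPKM. Exons that overlap a neighbour on the same strand make some of these levels less certain, with 2744 shared bases for *Cpt1b*, 617 for *Etfb* (with *Gm45233*), 244 for *Acsl3* (with *Utp14b*) and 163 for *Acad11* (with *Gm28305*).

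Several smaller shifts passed a test that set no minimum fold. At an edgeR adjusted p of at most 0.05, 9 of the 36 genes passed (25.0%, against 22.8% of all tested genes). They were higher in 5 cases, *Cpt1a*, *Acadl*, *Acadvl*, *Eci1* and *Hadh*, and lower in 4 cases, *Acsl6*, *Acsl4*, *Acsl3* and *Cpt1c*.

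The surrounding pathway was followed in 82 further genes of fatty acid uptake, control and related oxidation, of which 75 were tested. In Nrf1-CKO 9 of the 75 were called higher (12%, against 12.8% of all tested genes) and 7 lower (9.33%, against 8.04%). The gene with the largest change was *Cd36*, a fatty acid translocase that is also known from macrophages and endothelium, at 0.697 and 0.795 CPM in wildtype and at 4.31 and 5.12 CPM in Nrf1-CKO. Its log2 fold change was 2.66 (SE 0.27, edgeR adjusted p = 0.00027). The 10 markers of macrophages and microglia were called higher in the same libraries, and their part in the *Cd36* difference was not tested. In the same list of 10 tested uptake and binding genes, *Fabp5*, a fatty acid binding protein of neural progenitors, fell by 0.54 on the log2 scale (SE 0.14), as did *Slc27a2*, at -1.05 (SE 0.41) and close to 1 CPM. *Fabp5* was not called without the first wildtype library (-0.36) or the second Nrf1-CKO library (-0.40). *Slc27a2* was called only with all libraries or without the second wildtype library.

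In the list of malonyl-CoA control 1 of 8 tested genes was called higher, and in that of PPAR regulators 2 of 7. None was called lower in either list. Of all tested genes, 12.8% were called higher and 8.04% lower, and lists this short are too small to read these counts as particular to them. Malonyl-CoA is made at the mitochondrion by the product of *Acacb*, which was at 9.57 and 9.32 CPM in wildtype and at 11.9 and 15.1 CPM in Nrf1-CKO (log2 fold change 0.52, SE 0.15, edgeR adjusted p = 0.034). Without the second Nrf1-CKO library *Acacb* was not called, at 0.34. The other 7 tested genes of malonyl-CoA control were not called. Of 7 tested PPAR regulators, 2 rose, both of them coactivators of mitochondrial gene expression. *Ppargc1a* was at 7.64 and 6.59 CPM in wildtype and at 12.3 and 12.5 CPM in Nrf1-CKO (log2 fold change 0.80, SE 0.14, edgeR adjusted p = 0.0035). *Ppargc1b* was at 2.51 and 3.06 CPM in wildtype and at 5.74 and 5.08 CPM in Nrf1-CKO (log2 fold change 0.96, SE 0.21, edgeR adjusted p = 0.010). The genotypes did not overlap in either gene.

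Among 7 tested PPAR target genes, 4 were called higher and 1 lower, against 12.8% and 8.04% of all tested genes, and 7 genes are too few to read this as particular to the list. *Ucp2*, a carrier of the inner mitochondrial membrane, rose from 14.0 and 13.8 to 23.0 and 23.8 CPM (log2 fold change 0.75, SE 0.10, edgeR adjusted p = 0.0011). *Angptl4*, an inhibitor of lipoprotein lipase, had a log2 fold change of 0.50 (SE 0.17, edgeR adjusted p = 0.076), and *Vldlr*, the receptor of very low density lipoprotein, fell by 0.75 on the log2 scale (SE 0.14, edgeR adjusted p = 0.0062). *Pdk4*, a kinase that holds back pyruvate oxidation and was also called higher, was below 1 CPM on average, with a log2 fold change of 2.22 (SE 0.85). Neither *Angptl4* (0.33 and 0.34) nor *Pdk4* (1.48 and 1.79) was called without the first wildtype library or without the second Nrf1-CKO library.

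The remaining calls were spread over the other lists, each of at most 14 tested genes, and counts in lists this short cannot be read as particular to a list beside the 8.04% called lower and 12.8% called higher of all tested genes. *Acot1*, an acyl-CoA thioesterase with close copies, had a log2 fold change of 0.50 (SE 0.16) and was the only call among 8 thioesterases. Ketone body metabolism had 2 of 5 genes lower, *Bdh1* at -0.74 (SE 0.11, edgeR adjusted p = 0.0016) and *Acat1* at -0.49 (SE 0.08). Oxidation of branched-chain amino acids had 2 of 10 genes lower, *Pccb*, a propionyl-CoA carboxylase subunit, at -0.53 (SE 0.08) and *Auh*, a hydratase of leucine breakdown, at -0.53 (SE 0.12). None of 6 genes of lipid droplet lipolysis was called, nor any of 14 tested genes for other carnitine and peroxisomal steps. Over all 75 tested pathway genes, the count called higher was 9 with all libraries, 4 without the second Nrf1-CKO library and 12 without the first. *Acot1* was not called without the second wildtype library (0.43) or the second Nrf1-CKO library (0.42). *Acat1* was not called without the first wildtype library (-0.42) or the first Nrf1-CKO library (-0.47). *Auh* was not called without the second wildtype library (-0.45) or the second Nrf1-CKO library (-0.48).

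**Figure D4:**
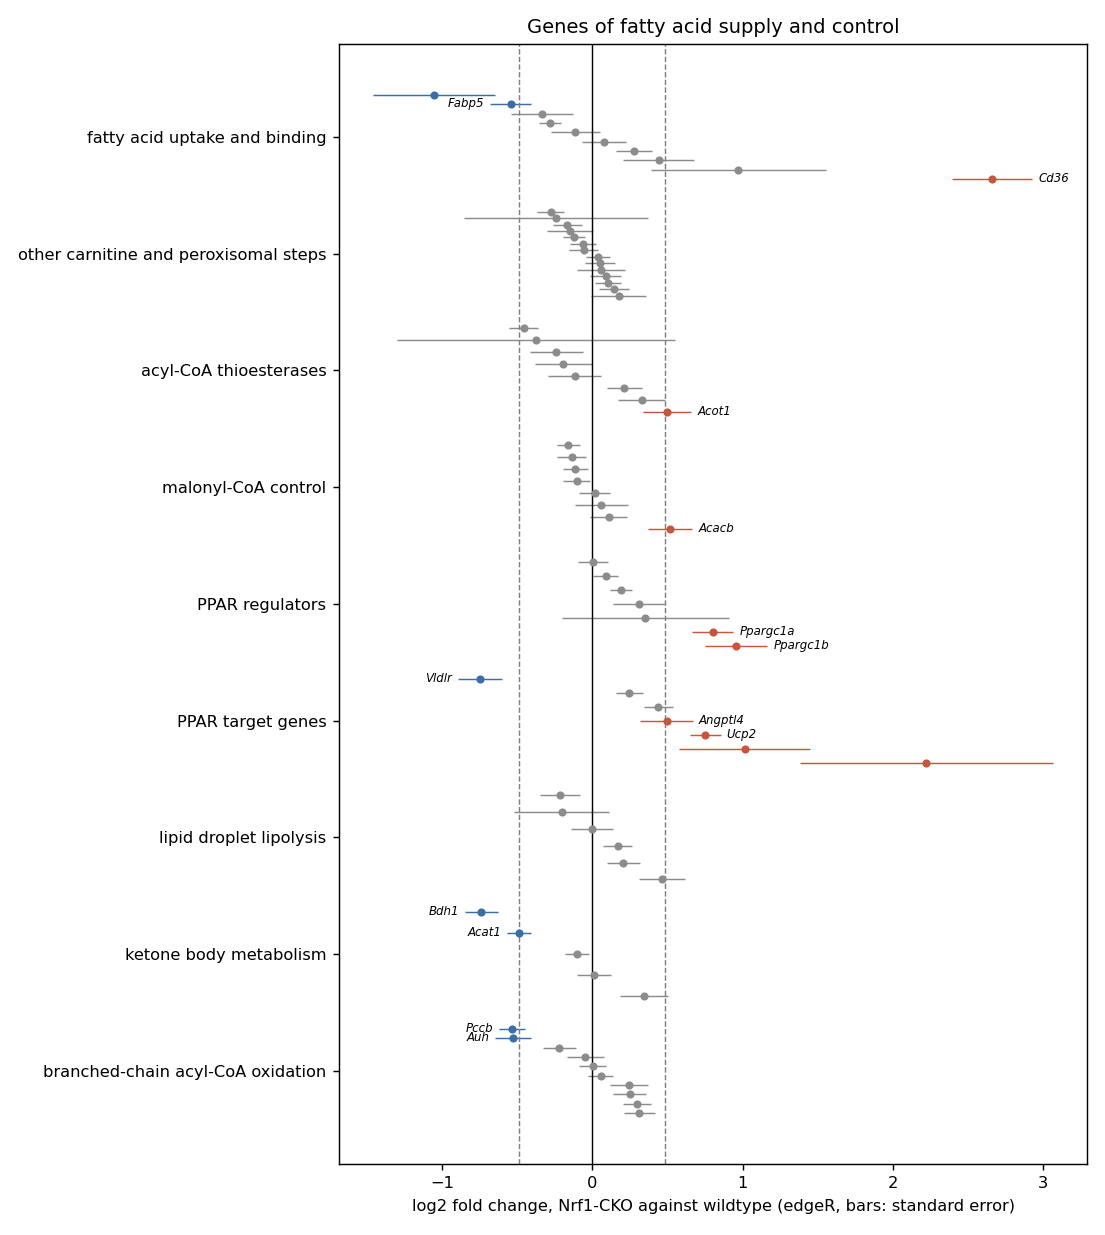
Log2 fold change in Nrf1-CKO against wildtype, with the standard error as bars, of the 75 tested genes of fatty acid supply and control, in rows by list; red points were called higher, blue points lower, grey points were not called, and called genes with a mean of at least 1 CPM are named. *Cd36* at 2.66 stands apart on the right, and both called PPAR regulators, *Ppargc1a* and *Ppargc1b*, lie to the right of the dashed 1.4-fold line.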

How the data were processed

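RNA-seq libraries of E13.5 retinas, 2 wildtype and 2 Nrf1-CKO, were analysed from 2 tables. The authors mapped reads to mm10 with TopHat2 (2.7.2 in the submitters' processing notes) and deposited HTSeq counts per gene without normalization. The annotation release and strand setting are not given in the sources used here. The authors also deposited normalized values on a log2 scale, made in a way that is not given in the sources used here; the processing notes name DESeq and limma without their role. The header line held more cells than the columns, so its 4 names were read in order onto the 4 value columns.

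HTSeq's summary entries, 74.0% to 75.0% of all entries, stayed out of library sizes. The 4 libraries held 74577660 to 85933945 reads on genes, and with 2 libraries per genotype standard errors are wide. Nothing says that replicates came from separate litters, so p-values measure the spread between these pools, which may be technical.

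Genes were filtered with filterByExpr (minimum count 10), scaled with TMM and compared by the quasi-likelihood test of edgeR 4.0.16 (R 4.3.3), with genotype as the only term and Benjamini-Hochberg adjustment over 15762 genes. Calls used the study's thresholds of 1.4-fold and 0.2, but its Cuffdiff analysis of aligned reads was not repeated. Standard errors are the log2 fold change divided by the square root of F. RPKM used the length of the principal transcript in GENCODE vM21 (GRCm38), and promoters came from RefSeq.

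The members and lists were chosen with earlier results of these data known. All members are described. Of the 82 pathway genes, those called with a mean of at least 1 CPM were named, at most the 12 with the largest change, plus *Slc25a20*. *Slc27a2*, *Pdk4* and *Acat1* were named after their values were seen, to complete counts. Results for a few further genes are not reported here. Alternatives were other scaling, filters and thresholds, DESeq2 1.42.0, limma 3.58.1 on the deposited log2 values, the replicate number as a block, and each library left out.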

Additional observations from a re-analysis of the deposited data

How the results depend on the processing

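*Cpt1a*, *Acsl4* and *Acsl6* were called in the same direction under every alternative run, and *Cpt1a* had log2 fold changes from 1.02 (limma on the deposited values) to 1.28. *Ehhadh* was not called with upper-quartile factors (-0.46), with limma on the deposited values (-0.27), or at an adjusted p of 0.05. The count of members called higher, 1 in the main analysis, was 2 with upper-quartile factors, where *Acadl* (0.51) passed, 1 to 2 when each library was left out, and 5 at an adjusted p of 0.05 with no minimum fold. *Acadl* also passed without the first wildtype library (0.50) or the second Nrf1-CKO library (0.55), and *Acadvl* (0.51) without the first Nrf1-CKO library. *Acsl3* passed without the second wildtype library (-0.50). With limma on the deposited values, 722 genes were called lower and 941 higher, against 1268 and 2024, and the pathway lists had 2 lower and 3 higher, against 7 and 9. Pathway genes called higher numbered 5 at an adjusted p of 0.05 and 1.4-fold, and 4 to 12 when each library was left out. The median of the members lay between -0.0136 (without the second Nrf1-CKO library) and 0.0726 when each library was left out. The cause of these shifts was not tested.

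Members near 0 that changed sign were none of the called ones. With upper-quartile factors *Crat* was at 0.0195, *Acad9* at 0.0302 and *Acox3* at 0.0054, and with a filter at 1 CPM *Acad9* was at 0.0039. When each library was left out, the log2 fold change ranged from -2.57 to 0.53 for *Cpt1b*, -0.0846 to 0.0546 for *Crat*, -0.11 to 0.0229 for *Crot*, -0.0069 to 0.13 for *Acad8*, -0.0599 to 0.0387 for *Acad9*, -0.21 to 0.0507 for *Acad10*, -0.0174 to 0.18 for *Hadha*, -0.0131 to 0.12 for *Etfdh*, -0.22 to 0.12 for *Acaa1a* and -0.0479 to 0.0944 for *Hsd17b4*.

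Over all tested genes, the deviations of samples that share a replicate number were not correlated (correlation -0.0025). With only 2 libraries per genotype, this value cannot show whether same-numbered samples shared a litter or day. With the replicate number as a block, 3 members were called lower and 1 higher, and 1256 of all genes lower and 1970 higher. Low counts limit *Acsbg1* and *Cpt1b*, whose standard errors were 0.58 and 1.02; for *Cpt1b*, depth and the exons it shares with another gene cannot be told apart.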
